A study of Homo sapiens with 9 samples.

Results

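Collagens, laminins and integrins build the extracellular matrix around a cell and tie the cell to it, and their genes were followed here through activation of the vitamin D receptor (VDR) in HepG2, a cell line derived from a human hepatocellular carcinoma. The families were chosen with earlier results of these data known. Their genes were then taken by symbol alone: collagen chains (COL, a number, A and a number), laminin chains (LAMA, LAMB or LAMC with a number), and all symbols beginning with ITGA or ITGB. This took 78 of the 17687 genes measured, namely 41 collagens, 8 laminins, 17 integrin alpha subunits, 8 integrin beta subunits and 4 genes that carry an ITGB name without encoding a subunit (ITGB1BP1, ITGB1BP2, ITGB3BP and ITGBL1). COL18A1-AS1, an antisense transcript, matched none of these patterns and was not counted.

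All cells received an adenovirus for 48 h, at 1 plaque-forming unit per cell, and then fresh medium for 4 h. VDR+VitD cells carried the adenovirus encoding human VDR (Ad-VDR) and were exposed to 10 nM VitD, which is calcitriol, the hormonal form of vitamin D. VDR cells carried Ad-VDR and received the DMSO vehicle, and CONT cells carried the insertless virus Ad-C with the same vehicle. No array came from cells with Ad-C and VitD, so VDR+VitD against CONT joins the effects of receptor and hormone. The paper names 3 independent cultures of this cell line. Each of 3 experiments, read from the numbers E1 to E3 in the labels, gave 1 array of each group, which makes 3 per group. The values are log2 RMA values from Clariom S arrays. Only transcripts after a short exposure were measured, and neither protein nor deposited matrix.

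Collagen chains wind in groups into triple helices that form fibrils, networks or filaments, and laminin alpha, beta and gamma chains assemble into the cross-shaped trimers on which basement membranes are laid. Integrins are pairs of an alpha and a beta subunit that span the plasma membrane, bind collagen, laminin or other ligands outside the cell and recruit adaptors and kinases to their tails inside. In the liver, fibrillar collagen comes mainly from stellate cells and fibroblasts, while hepatocytes face a loose matrix and hold it through integrins.

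VDR was at log2 values between 17.45 and 17.87 on the 6 Ad-VDR arrays, against 6.04 to 6.79 in CONT cells, and CYP24A1, the enzyme that inactivates VitD, lay between 16.38 and 16.44 in VDR+VitD cells, against 5.25 to 6.08 in VDR cells and 6.64 to 7.84 in CONT cells. Array medians differed little (6.16 to 6.20). All 9 measured hepatocyte markers were above background in every group and none was called. Their mean was 16.07 to 16.09 in VDR+VitD cells and 16.02 to 16.17 in VDR cells, above the 15.87 to 16.01 in CONT cells. In VDR against CONT, 8 of the 9 log2 fold changes were positive. Among markers of other cells, 4 of 9 stellate or fibroblast genes, 2 of 8 endothelial, 4 of 8 macrophage or leukocyte and 4 of 5 cholangiocyte genes were above background in at least 1 group.

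A gene was called where limma gave a Benjamini-Hochberg adjusted p under 0.05 over the 17687 genes and a fold-change over 1.5. With VitD, that is in VDR+VitD against VDR, 2 of the 78 members were called, a rise of COL18A1 and a fall of ITGA2. This is 2.56% of the members, where 4.16% of all genes measured were called in the same comparison, 2.62% higher and 1.53% lower. The same 2 genes were called in VDR+VitD against CONT, where the background was 4.81% of all genes, 2.69% higher and 2.12% lower. In VDR against CONT, limma called 0 members at a background of 0.407%, of which 0.102% higher and 0.305% lower, and it also called 0 with the experiment as a block. At an unadjusted p under 0.05 there were 9 members with VitD (15.1% of all genes), 9 in VDR+VitD against CONT (16.6%) and 3 in VDR against CONT (9.5%). The share of called members was below the share of all genes in each comparison. This difference rests on at most 2 calls and was not tested.

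The promoters of the called genes are shown because these 2 genes alone among the members passed both thresholds. The sequences are RefSeq promoters on GRCh38.p14, each from 250 bases before to 50 bases after a start of transcription, on the plus strand. ITGA2 lies at chr5:52989102-52989401 with 72.7% G and C. COL18A1 has 2 annotated starts in the table, at chr21:45404915-45405214 with 86.7% G and C and at chr21:45455272-45455571 with 66.3%, and its single array cluster does not tell transcripts of the starts apart. Capitals mark the GC box GGGCGG, to which Sp and KLF factors bind, or its reverse complement CCGCCC.
ITGA2: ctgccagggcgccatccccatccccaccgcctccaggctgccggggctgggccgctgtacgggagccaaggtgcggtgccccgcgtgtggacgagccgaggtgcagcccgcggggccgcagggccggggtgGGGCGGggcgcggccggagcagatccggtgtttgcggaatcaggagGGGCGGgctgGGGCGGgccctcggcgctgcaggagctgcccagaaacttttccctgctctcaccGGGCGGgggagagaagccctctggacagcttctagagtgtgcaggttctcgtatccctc
COL18A1 start 1: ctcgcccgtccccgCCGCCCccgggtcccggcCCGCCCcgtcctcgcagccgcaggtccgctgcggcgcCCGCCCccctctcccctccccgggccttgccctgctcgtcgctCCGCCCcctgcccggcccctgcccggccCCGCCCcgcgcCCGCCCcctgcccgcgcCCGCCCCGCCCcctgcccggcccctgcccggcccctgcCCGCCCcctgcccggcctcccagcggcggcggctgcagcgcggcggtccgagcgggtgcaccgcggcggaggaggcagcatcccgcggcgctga
COL18A1 start 2: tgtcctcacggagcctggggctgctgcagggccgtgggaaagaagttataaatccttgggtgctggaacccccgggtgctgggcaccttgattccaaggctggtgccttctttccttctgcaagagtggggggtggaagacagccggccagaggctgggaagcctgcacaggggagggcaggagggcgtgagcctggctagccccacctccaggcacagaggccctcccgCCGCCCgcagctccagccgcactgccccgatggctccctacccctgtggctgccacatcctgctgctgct
ITGA2 held 4 GC boxes and the first COL18A1 start 9 on the opposite strand, some of them overlapping, while the second start held 1. Among all 35116 promoters given, 44.954% held at least 1 GC box on either strand, and 9.064% held 4 or more. The second COL18A1 window also held 1 match to the TATA box letters TATAAA, with its first base at -204 relative to the start. These letters were found in 11.53% of all promoters. Further motifs were searched on both strands and had no match in the 3 windows. The repeated units of VDR binding sites were searched as AGGTCA (in 13.831% of all promoters), as GGTTCA (in 8.623%) and as AGTTCA (in 10.448%). The TEAD motif CATTCC was in 14.033% of all promoters, and the AP-1 motif TGANTCA in 7.709%. A match describes letters and is no proof of a bound site, and no match says only that these letters are not in the window. Promoters were in the table for 56 of the 78 members.

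ITGA2 was the integrin gene that changed. It encodes the alpha subunit that joins the ITGB1 product in a receptor for collagen, and its Entrez identifier is 3673. Its log2 values were 10.63, 10.62 and 10.43 in VDR+VitD cells, 11.39, 11.71 and 11.28 in VDR cells, and 12.02, 12.34 and 11.79 in CONT cells. Every VDR+VitD array lay below every VDR array, and every VDR array below every CONT array. In VDR+VitD cells ITGA2 was 1.87-fold below its level in VDR cells, a log2 fold change of -0.90 ± 0.16 (SE) with a 95% confidence interval of -1.25 to -0.55 (limma adjusted p = 0.0031). The fall was present in each experiment, with differences of -0.76, -1.09 and -0.85. Against CONT cells the fall in VDR+VitD cells was 2.81-fold, a log2 fold change of -1.49 with an interval of -1.84 to -1.14 (limma adjusted p = 2.7e-05). ITGA2 stayed called in both comparisons with each array left out in turn.

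Ad-VDR without VitD came with a smaller difference in ITGA2. Its log2 fold change in VDR against CONT cells was -0.59, with an interval of -0.94 to -0.24 and differences of -0.63, -0.63 and -0.51 in the experiments, which is just past the fold threshold. The limma adjusted p was 0.183, or 0.065 with the experiment as a block, so that ITGA2 was not called there. It was the member with the largest difference between VDR and CONT cells. The 3 groups thus ran in the same order in 3 of 3 experiments, with the step that involves VitD called and the step that involves the receptor alone not called. The intervals of these steps overlapped, and whether their sizes differ was not tested.

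The subunit with which ITGA2 is paired did not move with it. ITGB1 encodes the beta subunit shared by many integrins, and its log2 values were 14.94, 15.12 and 15.09 in VDR+VitD cells, 14.95, 15.27 and 15.14 in VDR cells, and 15.20, 15.30 and 15.12 in CONT cells. The arrays of the groups overlapped. The log2 fold change was -0.07 in VDR+VitD against VDR, with an interval of -0.35 to 0.21, and -0.16 in VDR+VitD against CONT, with an interval of -0.44 to 0.12, both inside 1.5-fold either way. ITGA10 and ITGA11, the other measured alpha subunits that bind collagen, were not above background in any group, and their log2 fold changes in VDR+VitD against VDR were 0.02 and 0.04.

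**Figure D1:**
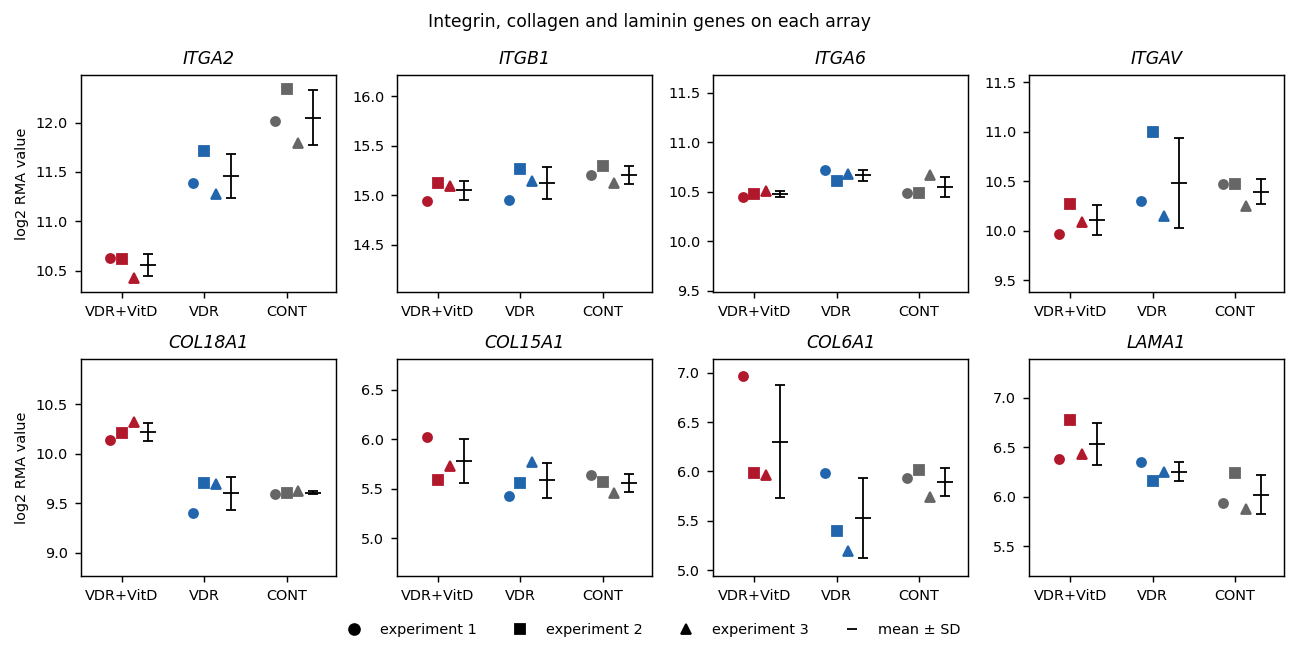
Log2 RMA values (vertical axes, each panel on its own range) of 8 genes on the 9 arrays, with VDR+VitD cells left, VDR cells in the middle and CONT cells right. Symbols mark the 3 experiments and black bars give the mean ± SD of the 3 arrays. ITGA2 values in VDR+VitD cells (10.43 to 10.63) lie below those of both other groups, and COL18A1 values (10.14 to 10.32) above them, while ITGB1 values overlap.

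The other 24 integrin subunits were not called in VDR+VitD against VDR, and over all 25 the median log2 fold change was 0.05, against -0.02 over all genes. Of the subunits, 9 were above background in at least 1 group. ITGA6, an alpha subunit of laminin receptors, was at 10.45, 10.48 and 10.51 in VDR+VitD cells, against 10.72, 10.61 and 10.68 in VDR cells and 10.49, 10.49 and 10.67 in CONT cells. Its VDR+VitD and VDR arrays did not overlap, but the log2 fold change was only -0.19 (limma adjusted p = 0.535). ITGAV, an alpha subunit that recognises the RGD sequence of ligands such as vitronectin and fibronectin, was at 9.97, 10.27 and 10.09 in VDR+VitD cells, against 10.30, 11.00 and 10.15 in VDR cells. These groups overlapped, and the VDR array of experiment 2 stood highest (log2 fold change -0.37, limma adjusted p = 0.392).

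Among the beta subunits ITGB5, which pairs with ITGAV, had the lowest p. Its log2 values were 10.59, 10.57 and 10.55 in VDR+VitD cells, against 10.51, 10.19 and 10.10 in VDR cells and 10.44, 10.41 and 10.58 in CONT cells. The VDR+VitD arrays lay close together and above the VDR arrays, with a log2 fold change of 0.30 (limma adjusted p = 0.300). ITGB2, the beta subunit of leukocyte integrins, was at 5.92, 5.19 and 5.77 in VDR+VitD cells, against 5.41, 5.12 and 5.03 in CONT cells, near background. Its log2 fold change in VDR+VitD against CONT was 0.44 and not called, and it was called only when the VDR+VitD array of experiment 2 was left out (0.66, limma adjusted p = 0.0378). The alpha subunits of leukocyte integrins gave no call, and ITGAL, the one with the lowest p, was not above background (log2 fold change 0.30). The same held for the subunits ITGA4 and ITGA9, of which ITGA9 had a log2 fold change of 0.09.

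Of the 4 ITGB names that are no subunit, ITGB3BP, a centromere protein that was first found as a partner of an integrin tail, had the highest log2 fold change of any member in VDR against CONT. It was at 9.69, 9.58 and 9.80 in VDR cells, against 9.34, 8.92 and 9.41 in CONT cells, without overlap (log2 fold change 0.47, limma adjusted p = 0.419). ITGB1BP2, a muscle protein, was at 3.10, 3.07 and 3.18 in VDR+VitD cells, against 3.06, 3.99 and 3.84 in VDR cells. It was below background throughout, and a log2 fold change of -0.51 with VitD (limma adjusted p = 0.202) became -0.80 and called (limma adjusted p = 0.0058) when the VDR array of experiment 1 was left out.

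COL18A1 was the collagen gene that changed. It encodes the core protein of a basement membrane proteoglycan whose end is cut off as endostatin, an inhibitor of vessel growth, and its Entrez identifier is 80781. Its log2 values were 10.14, 10.21 and 10.32 in VDR+VitD cells, 9.40, 9.70 and 9.69 in VDR cells, and 9.59, 9.60 and 9.62 in CONT cells. All VDR+VitD arrays lay above all arrays of both other groups, which overlapped each other. In VDR+VitD cells COL18A1 was 1.54-fold above its level in VDR cells, a log2 fold change of 0.63 ± 0.13 (SE) with an interval of 0.35 to 0.90 (limma adjusted p = 0.0087) and differences of 0.74, 0.51 and 0.63 in the experiments. Against CONT cells it was also 1.54-fold higher in VDR+VitD cells, a log2 fold change of 0.62 with an interval of 0.34 to 0.90 (limma adjusted p = 0.0086). VDR against CONT gave -0.01, with an interval of -0.28 to 0.27, inside 1.5-fold either way.

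The size of the COL18A1 rise was close to the fold threshold. Without the VDR array of experiment 1 the log2 fold change in VDR+VitD against VDR was 0.53 (limma adjusted p = 0.0495), and without the VDR+VitD array of experiment 3 it was 0.58 (limma adjusted p = 0.0439), both under 1.5-fold. Leaving out that VDR+VitD array also took the rise against CONT below 1.5-fold, to 0.57 (limma adjusted p = 0.0417). COL18A1-AS1, which is transcribed from the other strand of the locus, was not above background in any group. COL15A1, the other multiplexin collagen, was at 6.02, 5.59 and 5.73 in VDR+VitD cells, against 5.42, 5.56 and 5.77 in VDR cells and 5.64, 5.57 and 5.46 in CONT cells, with overlap. Its log2 fold change in VDR+VitD against VDR was 0.20, with an interval of -0.12 to 0.51.

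COL6A1 exceeded the fold threshold without passing the adjusted p. It encodes a chain of type VI collagen, which forms beaded filaments around cells. Its log2 values were 6.96, 5.98 and 5.96 in VDR+VitD cells, 5.98, 5.40 and 5.20 in VDR cells, and 5.93, 6.02 and 5.74 in CONT cells. The VDR+VitD array of experiment 1 was the highest of the 9 and the VDR arrays of experiments 2 and 3 the lowest, and the groups overlapped. The mean in VDR cells, 5.53, was near the background of 5.44 in that group, and its arrays of experiments 2 and 3 lay below it. COL6A1 was higher with VitD in 3 of 3 experiments, by 0.98, 0.58 and 0.76 on the log2 scale, and its log2 fold change was 0.77 ± 0.25 (SE) with an interval of 0.24 to 1.30 (limma adjusted p = 0.105). With the experiment as a block the adjusted p was 0.0213 and COL6A1 was called, as it was among the 8000 genes of largest interquartile range (limma adjusted p = 0.0224) and without the VDR array of experiment 1 (1.00, limma adjusted p = 0.0427). Without the VDR+VitD array of experiment 1 the log2 fold change was 0.44. Against CONT the log2 fold change in VDR+VitD cells was 0.40 and the VDR+VitD arrays did not stand apart.

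Its partner chains did not show the same difference. COL6A2 was at 5.82, 5.99 and 5.48 in VDR+VitD cells, against 5.62, 5.86 and 5.83 in VDR cells and 5.56, 6.17 and 6.07 in CONT cells. These overlapped, with a log2 fold change of -0.01 in VDR+VitD against VDR and an interval of -0.38 to 0.37. COL6A3 was not above background in any group (log2 fold change -0.18).

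Besides COL18A1, the other 40 collagens, COL6A1 among them, were not called in any of the 3 comparisons. Over the 41 collagens the median log2 fold change in VDR+VitD against VDR was 0.06, with values between -0.37 and 0.77, and 24 were positive and 17 negative. Among fibril-forming collagens COL5A3 had the lowest p. It was at 5.52, 6.07 and 5.75 in VDR+VitD cells, against 5.44, 5.17 and 5.46 in VDR cells and 5.40, 5.20 and 5.45 in CONT cells. The VDR+VitD arrays lay above both other groups at a level close to background, with a log2 fold change of 0.42 (limma adjusted p = 0.178). COL27A1, also of the fibril-forming class, had the lowest log2 fold change of the collagens, -0.37 (limma adjusted p = 0.304), with overlap. COL1A2, a chain of type I collagen, gave -0.21, and COL1A1, the other chain, was not above background.

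COL9A3, a chain of the fibril-associated type IX collagen, was at 10.88, 10.82 and 11.28 in VDR+VitD cells, against 10.63, 10.56 and 10.66 in VDR cells and 10.72, 11.13 and 10.71 in CONT cells. The VDR arrays were the lowest of the 9, and the log2 fold change with VitD was 0.38 (limma adjusted p = 0.255). In the network of type IV collagen, which is the scaffold of basement membranes, COL4A2 gave -0.01, with an interval of -0.29 to 0.27, and COL4A5 gave -0.09. COL4A6, the network-forming collagen with the lowest p, gave 0.26 and was not above background. COL4A1 was not above background either. Of the transmembrane collagens COL23A1 had the lowest p, with a log2 fold change of -0.15. COL10A1, a network-forming collagen of growing cartilage, was 1 of the 3 members with an unadjusted p under 0.05 in VDR against CONT (log2 fold change -0.37, limma adjusted p = 0.426), but was not above background.

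None of the 8 laminin chains was called. LAMA1, LAMB1 and LAMC1 encode the alpha, beta and gamma chains of the laminin of early basement membranes. LAMA1 was at 6.38, 6.77 and 6.43 in VDR+VitD cells, against 6.35, 6.16 and 6.25 in VDR cells and 5.94, 6.24 and 5.87 in CONT cells. The VDR+VitD arrays lay above all others, with a log2 fold change of 0.27 against VDR (limma adjusted p = 0.433). Against CONT it was 0.51, with an interval of 0.19 to 0.83 (limma adjusted p = 0.0606), and LAMA1 was called there only without the CONT array of experiment 2 (0.62, limma adjusted p = 0.0413).

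LAMC1 was at 12.49, 12.56 and 12.46 in VDR+VitD cells, against 12.43, 12.16 and 11.97 in VDR cells and 12.33, 12.33 and 12.00 in CONT cells. Here too the VDR+VitD arrays were the highest, and the log2 fold change against VDR was 0.32 (limma adjusted p = 0.329). LAMB1 ran the other way, at 12.11, 11.93 and 11.85 in VDR+VitD cells, against 12.05, 12.14 and 12.26 in VDR cells and 12.23, 12.12 and 12.12 in CONT cells, with overlap against VDR cells and a log2 fold change of -0.19 (limma adjusted p = 0.575). The beta chains LAMB2 and LAMB4 gave -0.01 and 0.29. Over the 8 chains the median log2 fold change was -0.05, with 3 positive and 5 negative, and the chains of a shared trimer had no common sign.

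**Figure D2:**
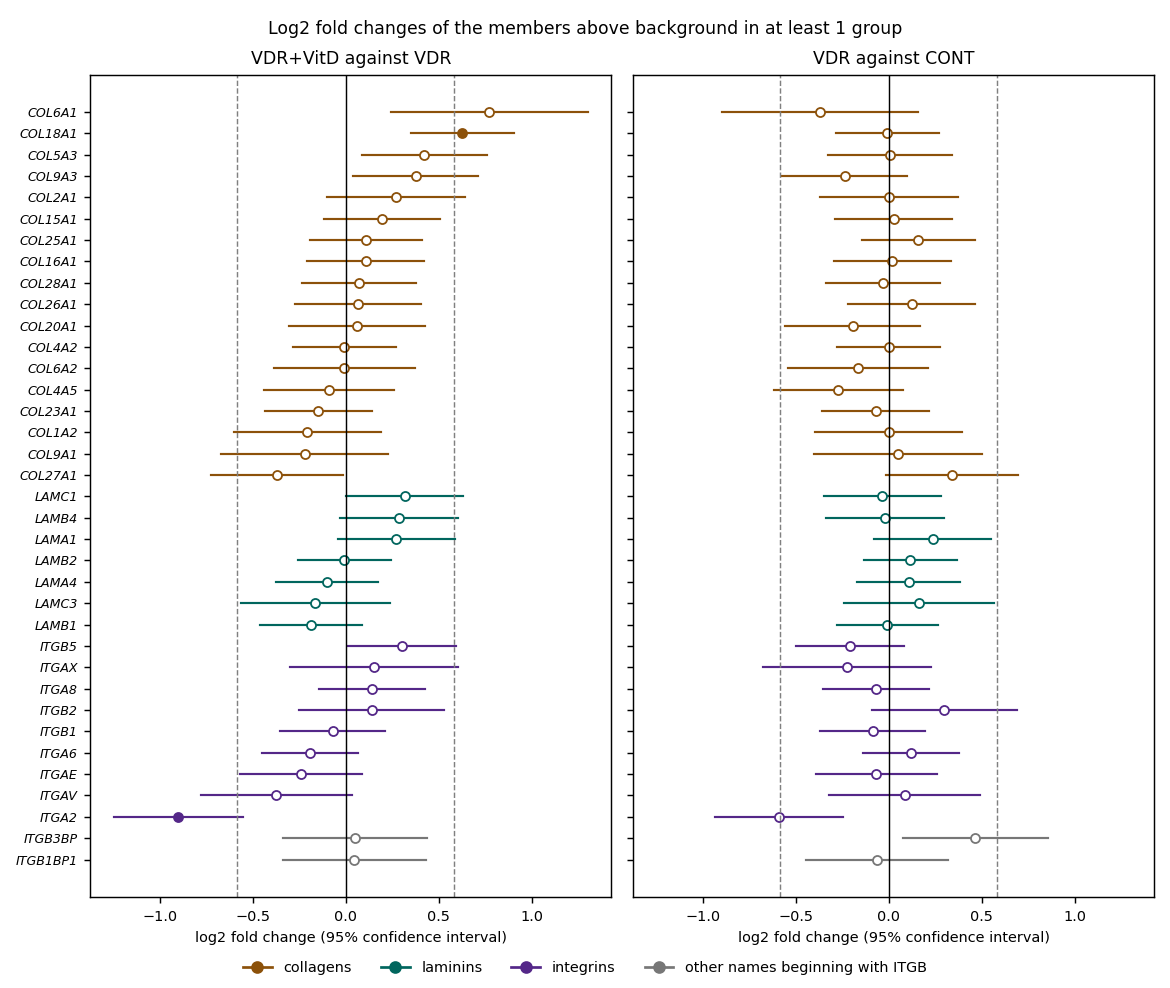
Log2 fold changes (horizontal axis) with 95% confidence intervals of the 36 genes that were above background in at least 1 group, for VDR+VitD against VDR left and VDR against CONT right. Filled points passed both thresholds and dashed lines mark 1.5-fold either way. COL18A1 (0.63) and ITGA2 (-0.90) are filled on the left and no gene is filled on the right.

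Of the 78 members, 36 (46.2%) were above background in at least 1 group, where 63.4% of all genes were, and 29 of them in every group. Background was set at the 95th percentile of the group means of 348 olfactory receptor genes, at log2 values of 5.31 in VDR+VitD, 5.44 in VDR and 5.37 in CONT cells, and is a description rather than a test of detection. Laminins passed it in 7 of 8 cases, collagens in 18 of 41 and integrin subunits in 9 of 25. Both called members passed it in every group, and a dim gene can change by more than its array values show.

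Most members had narrow intervals of their array values. For the 42 of 78 members above background in no group, such an interval does not bound the change. In VDR+VitD against VDR the 95% interval lay within 1.5-fold either way for 55 of the 78 members (70.5%), close to the 72.5% of all genes. In VDR+VitD against CONT this held for 59 members (75.6%, all genes 70.4%), and in VDR against CONT for 64 (82.1%, all genes 77.2%). The arrays of VDR+VitD and VDR cells did not overlap for 12 members (9 higher, 3 lower), or 15.4%, where 18.4% of all genes did not overlap. VDR+VitD and CONT cells did not overlap for 11 members (14.1%, all genes 21.7%), and VDR and CONT cells for 7 (8.97%, all genes 13.1%).

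Genes around the members in the same pathway were counted from lists of other matrix, ligand, receptor and adaptor genes. Of 24 measured genes for collagen synthesis and secretion, which modify, fold and carry the chains, none was called in any comparison by limma. Over all genes, 4.16% were called in VDR+VitD against VDR, 4.81% in VDR+VitD against CONT and 0.407% in VDR against CONT. A total of 1 of the 24 had an unadjusted p under 0.05 in VDR+VitD against VDR (all genes 15.1%). There was 1 in VDR+VitD against CONT (all genes 16.6%) and 2 in VDR against CONT (all genes 9.5%). ADAMTS14, a protease that trims procollagen, had the lowest p with VitD and was not above background (log2 fold change -0.28).

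Other basement membrane components gave 3 higher and 0 lower calls among 18 in VDR+VitD against VDR, 2 higher in VDR+VitD against CONT and 1 lower in VDR against CONT. These were 16.7%, 11.1% and 5.56% of the list, where 4.16%, 4.81% and 0.407% of all genes were called. TINAGL1, a secreted matrix protein that binds laminin and integrins, was at 11.10, 11.08 and 11.09 in VDR+VitD cells, 9.79, 9.67 and 9.29 in VDR cells, and 10.33, 10.29 and 10.23 in CONT cells. No arrays overlapped between any groups, and CONT cells lay between the others. The log2 fold change was 1.51 with VitD, or 2.84-fold (limma adjusted p = 6.2e-06), and 0.81 in VDR+VitD against CONT (limma adjusted p = 0.0022). In VDR against CONT it was -0.70 (limma adjusted p = 0.0474), and this call was lost with any 1 of the 9 arrays left out (limma adjusted p between 0.0527 and 0.1925) and with only the 6 arrays compared (0.1197). The call was kept with the experiment as a block (limma adjusted p = 0.0339).

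HSPG2, the basement membrane proteoglycan perlecan, was at 9.42, 10.05 and 9.94 in VDR+VitD cells, against 8.85, 9.07 and 9.40 in VDR cells and 9.35, 9.77 and 9.51 in CONT cells. Its log2 fold change was 0.26 in VDR+VitD against CONT, with overlap, and -0.44 in VDR against CONT, neither of them called. The VDR+VitD and VDR arrays did not overlap, with a log2 fold change of 0.70 (limma adjusted p = 0.0476). The call was lost without any 1 of the CONT or VDR arrays of experiment 1, the VDR or VDR+VitD array of experiment 2, or the CONT or VDR+VitD array of experiment 3 (log2 fold change 0.57 to 0.70, limma adjusted p 0.0541 to 0.2004). It was kept with the experiment as a block (limma adjusted p = 0.011). FREM1, a matrix protein of the skin basement membrane, gave 0.74 with VitD (limma adjusted p = 0.0406), and lost the call without any 1 of the VDR+VitD arrays, the VDR arrays of experiments 2 and 3 or the CONT array of experiment 3 (0.50 to 0.78, limma adjusted p 0.0583 to 0.1464). Against CONT cells FREM1 gave 0.77 (limma adjusted p = 0.0281), lost without any 1 of the VDR+VitD arrays or the CONT arrays of experiments 2 and 3 (0.66 to 0.81, limma adjusted p 0.0582 to 0.127). With the experiment as a block FREM1 was called in both comparisons (limma adjusted p = 0.0155 and 0.0107).

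Among 27 other ligands of integrins, 1 was higher and 1 lower with VitD, and 2 were higher and 1 lower in VDR+VitD against CONT. These were 7.41% and 11.1% of the list, where 4.16% and 4.81% of all genes were called. THBS1, a secreted glycoprotein that integrins and other receptors bind, was at 12.96, 13.01 and 12.52 in VDR+VitD cells, 14.33, 14.95 and 13.94 in VDR cells, and 14.80, 15.11 and 14.57 in CONT cells. The VDR+VitD arrays lay well below the others, 2.98-fold lower than in VDR cells (log2 fold change -1.58, limma adjusted p = 4.6e-04). LTBP3, which holds latent TGF-beta in the matrix, gave 0.79 with VitD (limma adjusted p = 0.0109), a call lost without the VDR+VitD array of experiment 1 or 2 or the VDR array of experiment 2 (0.66 to 0.74, limma adjusted p 0.0564 to 0.0642). Against CONT it gave 0.75 (limma adjusted p = 0.0135), lost without the VDR+VitD array of experiment 1 or 2 or the CONT array of experiment 1 (0.66 to 0.70, limma adjusted p 0.0663 to 0.0728). With the experiment as a block LTBP3 was called in both comparisons (limma adjusted p = 0.0159 and 0.0185). ICAM2, an adhesion molecule bound by leukocyte integrins, was called only in VDR+VitD against CONT (1.16, limma adjusted p = 0.0018).

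Of 28 adaptors and kinases at integrin tails, 2 were higher and 1 lower with VitD (10.7%, all genes 4.16%). TNS3, a tensin that links integrins to actin, rose 2.31-fold (log2 fold change 1.21, limma adjusted p = 1.9e-04), and BCAR1, a docking protein of focal adhesions, rose 2.06-fold (1.04, limma adjusted p = 5.9e-04). TNS3 was at 10.99, 11.30 and 11.22 in VDR+VitD cells, against 10.01, 10.20 and 9.68 in VDR cells, and BCAR1 at 13.21, 13.65 and 13.28 in VDR+VitD cells, against 12.36, 12.51 and 12.14 in VDR cells. For neither gene did the groups overlap. DAB2, an endocytic adaptor that clears integrins from the surface, fell 3.23-fold, with values of 7.87, 7.46 and 7.33 in VDR+VitD cells, against 9.72, 9.16 and 8.85 in VDR cells (log2 fold change -1.69, limma adjusted p = 1.6e-04). In VDR+VitD against CONT, 2 of the list were higher and 2 lower (14.3%, all genes 4.81%). BCAR1 (0.74, limma adjusted p = 0.009) lost its call there without the VDR+VitD array of experiment 2 (0.60, limma adjusted p = 0.0522). The call was kept with the experiment as a block (limma adjusted p = 0.0026).

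TNS4, another tensin, was the 1 gene of this list called in VDR against CONT (3.57%, all genes 0.407%). It was at 7.09, 7.40 and 7.37 in VDR+VitD cells, 6.69, 7.55 and 6.75 in VDR cells, and 8.01, 8.49 and 8.50 in CONT cells, so that the CONT arrays stood above all the Ad-VDR arrays. The log2 fold change in VDR against CONT was -1.34 (limma adjusted p = 0.0107), a call lost without the VDR array of experiment 1 or 3 or the CONT array of experiment 2 or 3 (-1.26 to -1.18, limma adjusted p 0.0569 to 0.0757). In VDR+VitD against CONT it was -1.05 (limma adjusted p = 0.0069), and in VDR+VitD against VDR 0.29 and not called. The call in VDR against CONT was kept with the experiment as a block (limma adjusted p = 0.0018).

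Of 12 other receptors for collagen and laminin, 2 were higher with VitD and 2 in VDR+VitD against CONT, with no lower call. This was 16.7% of the list in each comparison, where 4.16% and 4.81% of all genes were called. SDC1, a syndecan whose heparan sulphate chains bind matrix proteins, was at 11.64, 11.85 and 11.87 in VDR+VitD cells, against 10.93, 10.91 and 10.79 in VDR cells and 11.06, 10.76 and 10.71 in CONT cells. It rose 1.88-fold with VitD without overlap (log2 fold change 0.91, limma adjusted p = 6.4e-04). SDC4, a syndecan of focal adhesions, gave 0.84 (limma adjusted p = 0.0363), lost without the VDR+VitD array of experiment 1 or 2, the VDR array of experiment 3 or the CONT array of experiment 3 (0.56 to 0.84, limma adjusted p 0.0528 to 0.1502). In VDR+VitD against CONT, SDC4 was not called. BCAM, a laminin receptor of the immunoglobulin family, was called in VDR+VitD against CONT alone (0.80, limma adjusted p = 5.1e-04). DDR1, a receptor tyrosine kinase for collagen, passed the adjusted p with VitD but not the fold threshold (0.53, limma adjusted p = 0.027).

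Of 26 matrix proteases and inhibitors, TIMP3, an inhibitor that stays bound to the matrix, was the 1 call with VitD (3.85%, all genes 4.16%). It was at 12.52, 12.31 and 12.32 in VDR+VitD cells, against 11.27, 11.23 and 11.22 in VDR cells and 11.41, 11.58 and 11.45 in CONT cells. It was 2.21-fold higher with VitD without overlap (log2 fold change 1.14, limma adjusted p = 3.0e-05). ADAMTS1, a protease of proteoglycans, was called lower in VDR+VitD against CONT (-0.81, limma adjusted p = 0.0067), at levels not above background. Calls were present in 5 of the 6 lists. Those lists were drawn up with earlier results of these arrays known, so their counts cannot speak for the pathway as a whole.

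**Figure D3:**
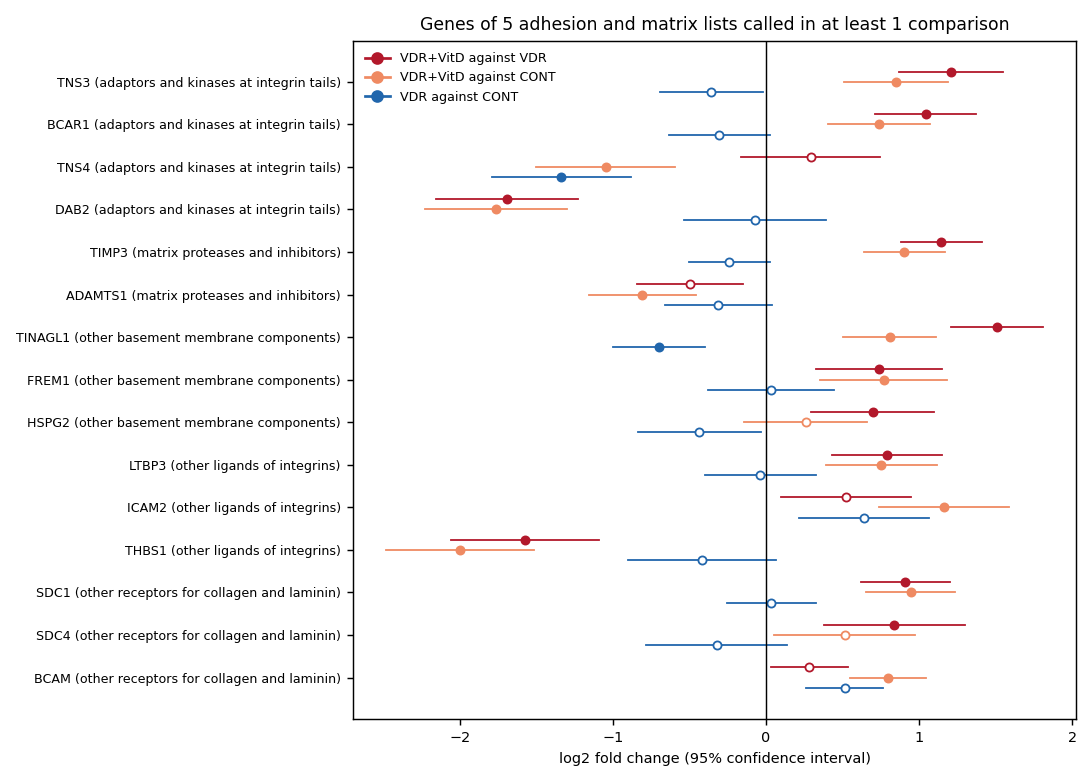
Log2 fold changes (horizontal axis) with 95% confidence intervals of the 15 genes from 5 adhesion and matrix lists that were called in at least 1 comparison, each gene labelled with its list. Colours stand for the 3 comparisons and filled points passed both thresholds. TINAGL1 (1.51) has the highest value with VitD and DAB2 (-1.69) the lowest.

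Among the markers of stellate cells and cholangiocytes, 1 of each list was called. Over all genes, 4.16% were called in VDR+VitD against VDR and 4.81% in VDR+VitD against CONT. NGFR, a stellate cell marker, was called higher in VDR+VitD against VDR (log2 fold change 0.98, limma adjusted p = 0.0033), as 1 of 9 in its list, and the list mean was 5.95 to 6.06 in VDR+VitD cells, against 5.86 to 5.93 in VDR cells and 5.77 to 5.89 in CONT cells. Without NGFR the mean of the other 8 genes overlapped between the arrays of VDR+VitD cells (5.82 to 5.92) and VDR cells (5.84 to 5.96), and 3 of the 9 log2 fold changes were negative, down to -0.42. DES, LRAT, LUM, THY1 and HAND2 of this list were not above background in any group, while 4 of the 9 genes were in every group. No gene of this list, NGFR included, was called in VDR+VitD against CONT. KRT19, a cholangiocyte marker, was 2-fold lower in VDR+VitD against CONT (limma adjusted p = 9.2e-04), as 1 of 5, with a list mean of 10.35 to 10.43 in VDR+VitD cells, against 10.50 to 10.64 in CONT cells. The mean of the other 4 genes overlapped, at 9.94 to 10.05 in VDR+VitD cells and 9.87 to 10.04 in CONT cells, and 2 of the 5 log2 fold changes were positive, up to 0.40. The part of these markers in the changes of ITGA2 and COL18A1 was not tested. In bulk RNA of a culture, fewer cells that express a gene and less RNA per cell cannot be told apart.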

How the data were processed

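The 9 Clariom S arrays were grouped by their labels, and 300 ng of RNA per sample were labelled. The authors deposited log2 values, for which the submitters' processing notes name RMA and Transcriptome Analysis Console 4.0.2, for 21448 transcript clusters. RMA corrects background, sets the arrays to a common distribution and summarises probes, so a shift shared by most genes would not be visible. The methods of the study name an Entrez-based probe annotation, whereas the row identifiers are those of the array maker, with the genome build not given in the sources used here. Array values do not count molecules, and precision is limited by having 3 arrays a group.

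The platform annotation gave 1 symbol to 17709 clusters and none to 3739. Clusters of the same symbol were averaged (20 symbols), which left 17687 genes. Each of the 78 members had a single cluster and matched RefSeq by Entrez identifier. All 17687 genes were fitted together with limma 3.58.1 (R 4.3.3), using lmFit and eBayes with group as the factor, two-sided. Calls needed both a fold-change over 1.5 and an adjusted p (Benjamini-Hochberg) under 0.05. The study excluded probes of low variation or low intensity, with cutoffs not stated in its methods, while a figure legend gives 8000 mRNAs kept by interquartile range. Here the first setting used no filter, and that size was an alternative. The steps were tested on simulated data. Figures were drawn with matplotlib 3.10.9.

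The members and lists were chosen with earlier results of these data known. The genes described were every called member, the member of lowest p in each class without a call, partner chains of called members, members past 1 threshold only, up to 4 called genes per pathway list (or the gene of lowest p), and VDR and CYP24A1. COL1A1, COL1A2, COL4A1, COL4A2, COL4A5, COL6A2, COL6A3, COL10A1, COL15A1, COL27A1, ITGA4, ITGA10, ITGA11, ITGB2, ITGB3BP, LAMB1, LAMB2, DDR1, NGFR and KRT19 were added after their values were seen.

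The labels number the arrays of each group E1 to E3, and this number was read as the experiment that pairs the arrays. Deviations from the group means correlated weakly, with r between 0.042 and 0.145 in the 9 pairs of the same number, against -0.0959 to 0.0102 in the 18 pairs of different ones. The study's methods name no block, so the blocked fit was an alternative. The others were leaving out each array, fitting only the 6 arrays compared, leaving out the lowest 0.25 of genes by mean level, keeping the 8000 genes with the largest interquartile range, an intensity trend, limma's treat against 1.5-fold, centring on array medians, and each cluster on its own.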

Additional observations from a re-analysis of the deposited data

How the results depend on the processing

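With 1 array left out at a time, the number of members called ranged from 1 to 3 in VDR+VitD against VDR and from 1 to 3 in VDR+VitD against CONT, where the first setting gave 2 in each. The lowest count, 1, came without the VDR+VitD array of experiment 3, when COL18A1 fell under 1.5-fold. Testing against 1.5-fold itself (limma's treat) left 0 called members in VDR+VitD against VDR and 1, ITGA2, in VDR+VitD against CONT. No member was called in VDR against CONT under any of the 17 alternatives. With the experiment as a replicate block, which the pairing of the arrays allows, 3 members were called in VDR+VitD against VDR, COL6A1 having joined ITGA2 and COL18A1, and 2 in VDR+VitD against CONT. The filter to 8000 genes also gave 3 in VDR+VitD against VDR. The log2 fold change of COL18A1 in VDR against CONT, -0.01, lay between -0.058 and 0.092 with 1 array left out, and changed sign without the VDR array of experiment 1 (0.09) and without the CONT array of experiment 3 (0.0017). The other alternatives left the count at 2 in both comparisons with VitD. Among the pathway genes called with VitD, HSPG2 (limma adjusted p = 0.0722), FREM1 (0.0621) and SDC4 (0.0587) lost their calls with only the 6 arrays compared. With 3 arrays a group, changes smaller than 1.5-fold could go uncalled, and for members near background the size of a change is not well measured.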
